A study of Mus musculus with 6 samples.

Results

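The de novo lipogenesis enzymes described here are 10 genes, Acly, Me1, Acaca, Acacb, Fasn, Thrsp, Elovl6, Elovl3, Scd1 and Scd2, which make fatty acids from acetyl-CoA or support that synthesis. They were chosen by gene symbol, with the Ensembl identifiers of the count file matched to GENCODE release M21 (mouse genome build GRCm38), and the matching rule itself uses no measured value. All 10 were found among 54532 identifiers. Of these, 15751 had enough counts to be tested, and 9 of the 10 enzymes were among them. Elovl3 was not. RNA-Seq was run on the epididymal fat, a visceral depot, of untreated male C57BL/6J mice, in 3 samples from normal diet (ND)-fed mice (4.5% fat) and 3 samples from high-fat diet (HFD)-fed mice (60% fat, D12492). The mice were put on either diet at 4 weeks of age and stayed on it for 16 weeks. The RNA came from whole tissue, and neither the labels nor the methods state whether each sample is a single mouse, so the p-values measure only the spread between these samples.

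Adipocytes can build fatty acids from glucose. Citrate leaves the mitochondrion, ATP-citrate lyase splits it to acetyl-CoA, acetyl-CoA carboxylase turns this into malonyl-CoA, and fatty acid synthase joins these units into palmitate with NADPH as the reductant. ELOVL6 then lengthens palmitate and stearoyl-CoA desaturases add the first double bond. The transcription factors SREBP-1c and ChREBP, which respond to insulin and to glucose, are known to drive most of these genes in liver. Their part in the fat studied here was not tested.

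The count totals lay between 16996896 and 18859320 reads per library, and the floor of 3 counts used here for a gene not detected corresponded to 0.150 to 0.181 CPM (counts scaled to a common library size with edgeR's TMM factors), which covers counting error only. Some libraries stood apart. ND replicate 2 was the highest of the 6 libraries for 9 of the 9 enzymes tested. ND replicate 3 held RNA of epithelial genes, with Epcam at 751 counts against 0 to 4 in the other libraries. HFD replicate 3 had the lowest summed level of 15 adipocyte markers, at 23461 CPM against 33554 and 46618 CPM in the other HFD libraries and 48495 to 61958 CPM across ND. The tissue label was checked against those markers, and the adipocyte genes Adipoq, Plin1, Fabp4 and Pparg were abundant in each library. In bulk tissue, fewer adipocytes and less RNA of a gene per adipocyte cannot be told apart.

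The genes for carboxylating acetyl-CoA, for building palmitate and for lengthening it had less RNA in fat on HFD than on ND. Acaca, Fasn, Elovl6 and Acacb fell on HFD by 9.47-fold, 7.42-fold, 7.95-fold and 3.47-fold, which is 4 of 9 enzymes tested at an adjusted p-value under 0.05 (edgeR's quasi-likelihood test with Benjamini-Hochberg adjustment over 15751 genes). Of all genes tested, 6.04% were called lower on HFD. No enzyme was called higher by edgeR or by DESeq2, while 9.85% of all genes were called higher by edgeR. At an unadjusted p under 0.05, 0 enzymes were higher, against 2940 of 15751 genes. Acly, Me1 and Thrsp did not pass but their diets did not overlap, so that in 7 of 9 enzymes each HFD library was below each ND library, against 19.1% of all genes. The same 7 had an unadjusted p under 0.05 in the lower direction, against 15.3% of all genes. The median log2 fold change (HFD minus ND) of the 9 enzymes was -2.27, beside 0.01 for all genes tested. Scd1 and Scd2, the desaturases, were the enzymes whose diets overlapped.

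**Figure D1:**
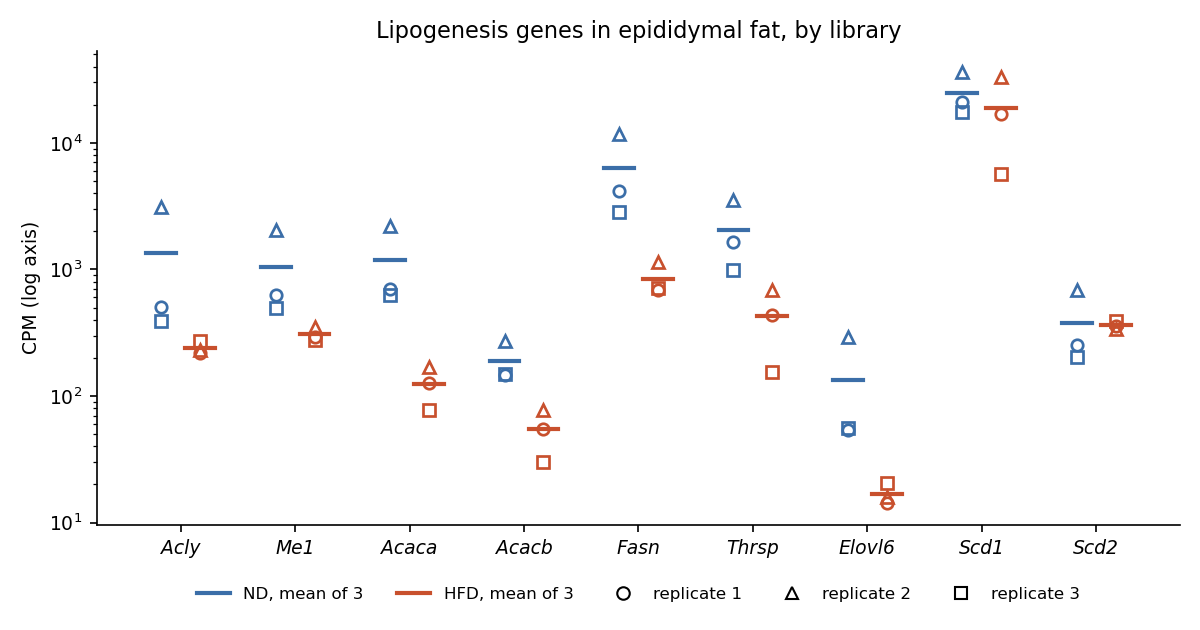
CPM of each tested lipogenesis enzyme (log axis) in the 3 ND and 3 HFD libraries, 1 point per library with its shape giving the replicate number and a line at the mean of each diet. In Acaca, Fasn, Elovl6, Acacb, Acly, Me1 and Thrsp the HFD points lie below the ND points, in Scd1 and Scd2 the diets overlap, and ND replicate 2 is the highest point of each tested enzyme.

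Acly (ENSMUSG00000020917, chromosome 11 of GRCm38, 100476353 to 100528000, minus strand) encodes ATP-citrate lyase, the source of cytosolic acetyl-CoA. It stood at 504, 3127 and 389 CPM in ND replicates 1, 2 and 3 and at 218, 230.4 and 272 CPM in HFD replicates 1, 2 and 3. The diets did not overlap, but the ND values ranged over 8.05-fold and the HFD values over 1.25-fold. The log2 fold change was -2.48 (SE 0.79, 95% interval -4.33 to -0.63) and did not pass (adjusted p = 0.0723 by edgeR). Without ND replicate 2 it was -0.89 (adjusted p = 0.0612). The 250 bases before its RefSeq start site (chr11:100528001-100528250, minus strand, GRCm38.p6) are shown since this enzyme and Fasn had promoter windows that begin at the annotated gene start and touch no other exon. Capitals mark the GC box GGGCGG in either orientation.
Acly promoter: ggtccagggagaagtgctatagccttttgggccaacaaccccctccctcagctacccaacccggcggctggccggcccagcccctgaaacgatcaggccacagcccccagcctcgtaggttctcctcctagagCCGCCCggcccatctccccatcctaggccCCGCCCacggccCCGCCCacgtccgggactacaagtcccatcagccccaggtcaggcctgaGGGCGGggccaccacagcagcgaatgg
The GC box starts 117, 88, 76 and 27 bases before the start site. Of 32851 RefSeq promoter windows, 32.7% held at least 1 in the 250 bases before the start, so the motif is a common one.

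Me1 (ENSMUSG00000032418, chromosome 9, 86581371 to 86695953, minus strand) encodes cytosolic malic enzyme, which makes NADPH for the synthase. Its CPM was 624, 2039.8 and 494 on ND and 294, 352 and 275 on HFD, without overlap. The lowest ND library was 1.40-fold above the highest HFD library. Its log2 fold change was -1.78 (SE 0.53, 95% interval -3.02 to -0.53, adjusted p = 0.0614 from edgeR), and -0.86 without ND replicate 2 (adjusted p = 0.0679). DESeq2's Wald test put Me1 just past the threshold (adjusted p = 0.0498).

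Acaca (ENSMUSG00000020532, chromosome 11, 84129672 to 84401651, plus strand) encodes ACC1, the cytosolic acetyl-CoA carboxylase whose malonyl-CoA feeds fatty acid synthesis. It was measured at 705, 2211 and 625 CPM on ND and at 126, 171 and 77.4 CPM on HFD. Each ND library was at least 3.66-fold above each HFD library, the widest gap among the 9 enzymes. The fall was 3.24 on the log2 scale (SE 0.58, 95% interval -4.60 to -1.89, adjusted p = 0.0146 by edgeR). The call held without ND replicate 2, at a log2 fold change of -2.41 or 5.33-fold (adjusted p = 0.0368).

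Acacb (ENSMUSG00000042010, chromosome 5, 114146535 to 114250761, plus strand) encodes ACC2, the carboxylase at the mitochondrial surface whose malonyl-CoA restrains the import of fatty acids for oxidation. It was measured at 145, 271 and 150 CPM on ND and at 55.1, 77.9 and 30.2 CPM on HFD, again without overlap. Its ND values ranged over 1.86-fold, less than those of any other enzyme tested. On the log2 scale the change was -1.79 (SE 0.39, 95% interval -2.71 to -0.88, adjusted p = 0.0251 from edgeR), and without ND replicate 2 it was -1.44 and no longer passed (adjusted p = 0.0787). Per length, the ratio of Acaca to Acacb FPKM was 2.74, 4.60 and 2.35 on ND and 1.29, 1.24 and 1.44 on HFD. The mean log2 ratio differed by -1.23 (HFD minus ND) with no overlap between the diets, at the smallest p that 3 samples against 3 allow (two-sided exact permutation test, p = 0.1, 0.22 adjusted over the 11 ratios computed), so the design could not reach 0.05.

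Fasn (ENSMUSG00000025153, chromosome 11, 120805846 to 120824547, minus strand) encodes fatty acid synthase. Its RNA was at 4167, 11845 and 2829 CPM on ND and at 682, 1139.9 and 716 CPM on HFD, so the lowest ND library was 2.48-fold above the highest HFD library. In rank by counts, Fasn was the 12th, 7th and 17th gene on ND and the 136th, 82nd and 142nd on HFD. Fasn fell by 2.89 on the log2 scale (SE 0.58, 95% interval -4.25 to -1.53, adjusted p = 0.0203 by edgeR). It was -2.05, or 4.13-fold, without ND replicate 2 and passed (adjusted p = 0.0416). The 250 bases before its start site (chr11:120824548-120824797, minus strand, GRCm38.p6, RefSeq) are shown with the CCAAT box, the NF-Y motif, in capitals in either orientation.
Fasn promoter: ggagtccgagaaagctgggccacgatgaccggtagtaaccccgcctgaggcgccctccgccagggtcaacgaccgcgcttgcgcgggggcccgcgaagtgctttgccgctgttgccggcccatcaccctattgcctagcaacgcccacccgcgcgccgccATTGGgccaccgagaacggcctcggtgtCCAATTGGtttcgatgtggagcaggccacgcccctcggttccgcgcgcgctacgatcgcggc
The box starts 90, 62 and 59 bases before the start site, and the last pair, on opposite strands, overlap in the run of capitals nearest the start. CCAAT was held by 33.8% of the 32851 windows. Counted per gene over all of its windows, it was held by 4 of the 7 enzymes with a window. The only match of Me1 lay in a window 8676 bases from the GENCODE gene start, and those of Thrsp lay in bases annotated as exon.

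The RefSeq table held windows for Acly, Me1, Acaca, Acacb, Fasn, Thrsp and Elovl6, while Scd1, Scd2 and Elovl3 had none. The sterol regulatory element core TCACNCCAC was in 0 of these 7 and in 1.05% of all windows, on both strands, and the E-box CACGTG was in 0 of 7 and in 6.02%. TATAAA was in 1 of 7, Acacb, and in 12.4% of all windows, and GGGCGG was in 2 of 7, Acly and Me1. The Acaca and Acacb windows lie 65766 and 18983 bases from the GENCODE gene start, so other promoters of these genes were not searched. A match is a run of letters in a short window, and no match says nothing of the factor.

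Thrsp (ENSMUSG00000035686, chromosome 7, 97412938 to 97417730, minus strand) encodes Spot 14, a small protein of lipogenic tissues that is induced by thyroid hormone. It was at 1634, 3555 and 981 CPM on ND and at 434, 686 and 156 CPM on HFD. The diets did not overlap, and within HFD the values ranged over 4.403-fold, with HFD replicate 3 the lowest. Its log2 fold change was -2.27 (SE 0.65, 95% interval -3.80 to -0.75) and missed the threshold narrowly (adjusted p = 0.0546 from edgeR), while DESeq2's Wald test called it (adjusted p = 0.0176). Without HFD replicate 2 it also passed by edgeR, at -2.80, and without ND replicate 2 it was -1.62 (adjusted p = 0.149).

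Elovl6 (ENSMUSG00000041220, chromosome 3, 129532355 to 129638495, plus strand) encodes the elongase that takes palmitate to stearate. It was at 53.4, 294 and 55.4 CPM on ND and at 14.3, 16.02 and 20.4 CPM on HFD. ND replicates 1 and 3 lay close together, ND replicate 2 was 5.51-fold and 5.31-fold above them, and each ND library was at least 2.62-fold above each HFD library. The log2 fold change was -2.99 (SE 0.70, 95% interval -4.64 to -1.34, adjusted p = 0.0315 from edgeR). It was -1.69, or 3.22-fold, without ND replicate 2, and the call remained (adjusted p = 0.0243). Elovl3 (ENSMUSG00000038754, chromosome 19, 46131897 to 46135694, plus strand), an elongase of very long saturated chains that is known from brown fat and skin, had 0, 7 and 0 counts on ND and 1, 2 and 7 counts on HFD. At this depth no difference was detectable, and no fold is given.

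Scd1 (ENSMUSG00000037071, chromosome 19, 44394455 to 44407879, minus strand) encodes the main stearoyl-CoA desaturase of white fat. Its CPM was 21176, 36089 and 17503 on ND and 17017, 33421 and 5660 on HFD. HFD replicate 2 was above ND replicates 1 and 3, HFD replicate 1 was close to ND replicate 3, and HFD replicate 3 was the lowest library. By counts Scd1 was the 1st gene in 5 of 6 libraries and the 7th in HFD replicate 3. Between the diets the log2 fold change was -0.41 (SE 0.63, adjusted p = 0.682 from edgeR), and its 95% interval from -1.90 to 1.07 holds a fall as large as that of Acacb as well as no change. Without HFD replicate 3 it was 0.00.

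Scd2 (ENSMUSG00000025203, chromosome 19, 44293674 to 44306864, plus strand) encodes a second desaturase of the same reaction. It was at 252, 688 and 202 CPM on ND and at 359, 339 and 393 CPM on HFD. The HFD values ranged over 1.16-fold and lay between ND replicate 2 and the other two ND libraries. The log2 fold change was -0.07 (SE 0.44, 95% interval -1.10 to 0.97, adjusted p = 0.932 from edgeR) and turned to 0.68 without ND replicate 2 (adjusted p = 0.0851). With all libraries its sign also depended on the method, at 0.13 with limma-voom. Per length, Scd1 exceeded Scd2 by 94.7-fold, 59.2-fold and 97.7-fold on ND and by 53.5-fold, 111-fold and 16.3-fold on HFD, and the diets overlapped (two-sided exact permutation test of the log2 ratio, p = 0.6, 0.66 adjusted over the 11 ratios). Scd1 and Scd2 are similar in sequence, and how reads matching both were assigned is not given in the sources used here, so the split between them is uncertain.

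**Figure D2:**
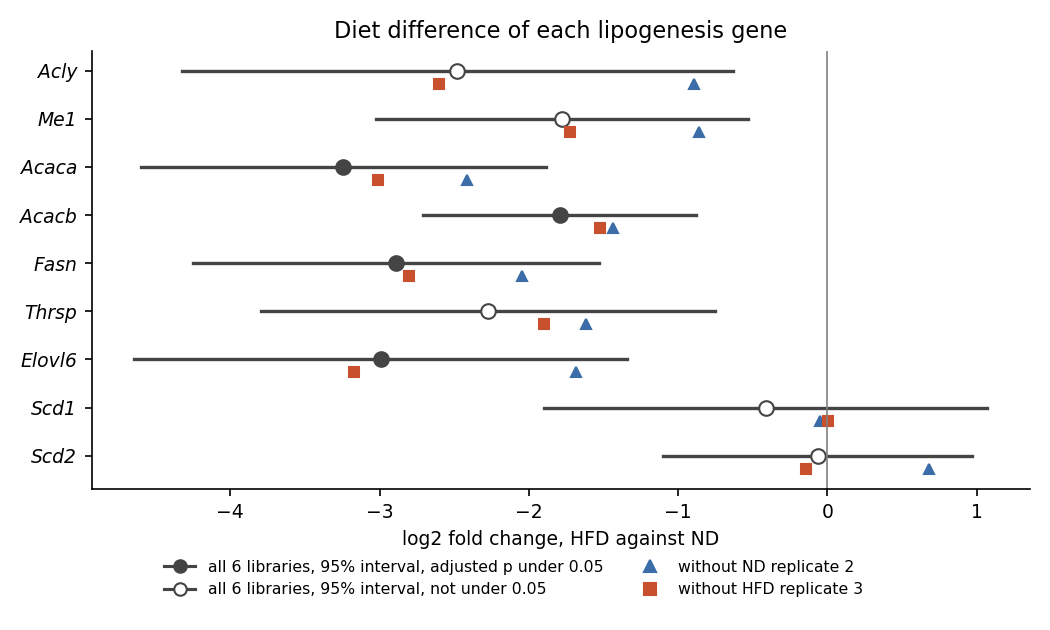
Log2 fold change (HFD minus ND, edgeR) of each tested enzyme with its 95% interval from all 6 libraries (circles, filled where the adjusted p was under 0.05), and the estimate without ND replicate 2 (triangles) and without HFD replicate 3 (squares). The intervals of Scd1 (-1.90 to 1.07) and Scd2 (-1.10 to 0.97) cross 0 with all libraries, and without ND replicate 2 the estimates move towards 0, or past it for Scd2.

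ND replicate 2 set much of the spread. It was the highest library in 9 of 9 enzymes, against 17.5% of all genes tested. It was at least 2-fold above both other ND libraries in 7 of 9 enzymes (Fasn, Acaca, Acly, Scd2, Elovl6, Me1 and Thrsp), against 1.21% of all genes. Of the 15 adipocyte markers and the 15 macrophage markers, 0 and 0 met that criterion, and of 14 genes of precursor supply 2 did, Slc25a1 and Acss2. So did 2 of 6 brown fat markers, Cidea and Otop1, and 1 of 5 skeletal muscle markers, Acta1, each named after its value was seen, and 0 genes of the other lists. With this library left out, Fasn, Acaca and Elovl6 were called lower, 3 of 9 enzymes against 1.32% of all genes, and 0 were called higher.

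The count of calls rested on single libraries in other cases too. It was 1 of 9 without ND replicate 1 (Acaca, against 0.956% of all genes), 3 of 9 without ND replicate 3 (2.46%), 0 of 9 without HFD replicate 1 (0.580%), 5 of 9 without HFD replicate 2 (9.65%) and 2 of 9 without HFD replicate 3 (4.58%). At an unadjusted p under 0.05, 7 of 9 were lower without ND replicate 1 (against 11.5% of all genes), ND replicate 2 (12.5%), ND replicate 3 (13.5%), HFD replicate 1 (11.0%) or HFD replicate 2 (17.8%), and 5 of 9 without HFD replicate 3 (13.5%). By adjusted p, Acaca was called in 5 of these 6 runs, Fasn and Elovl6 in 3, Acacb in 2, Thrsp in 1, and Acly and Me1 in 0. DESeq2's Wald test, in which Elovl3 was tested too, called 6 of 10, the 4 of edgeR with Thrsp and Me1, against 8.42% of all genes. With low-count genes kept in the edgeR fit, 2 of 10 enzymes passed, against 2.54% of all genes.

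Compared per length, which FPKM (counts scaled by gene length and library size) allows, Scd1 had the highest mean of the enzymes in both diets. It was at 5236 ± 2099 FPKM on ND and 3886 ± 2904 FPKM on HFD (SD, n = 3 each). Thrsp came next at 956 ± 627 and 195 ± 122 FPKM. On ND the order went on with Fasn (584), Me1 (278), Acly (258), Scd2 (71.0), Acaca (70.3), Elovl6 (21.3), Acacb (19.9) and Elovl3 (0.0924), each as mean FPKM. Among those neighbours the ranges, pooled over the libraries of the diet, were apart only between Scd1 and Thrsp and between Acacb and Elovl3. Within each single ND library, however, Thrsp was above Fasn, Fasn above Me1, Acly above Scd2 and Acaca above Elovl6. The order of Me1 and Acly, of Scd2 and Acaca, and of Elovl6 and Acacb differed between ND libraries. On HFD the mean FPKM ran through Me1 (80.1), Fasn (77.6), Scd2 (66.9), Acly (45.7), Acaca (7.33), Acacb (5.67), Elovl6 (2.64) and Elovl3 (0.129). There the ranges were apart between Scd1 and Thrsp, Scd2 and Acly, Acly and Acaca, and Elovl6 and Elovl3, so Scd2, whose diets overlapped, ranked above Acly on HFD and below it on ND.

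The 10 enzymes took 2.99%, 5.53% and 2.46% of all counts on ND and 1.99%, 3.56% and 0.743% on HFD. Most of that was Scd1. Without Scd1 the shares were 0.826%, 2.21% and 0.607% on ND and 0.227%, 0.294% and 0.190% on HFD, with no overlap.

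Some adipocyte markers differed between the diets. The geometric mean of the 15 markers was 1859.6, 1966 and 1676 CPM on ND, against 1099.8, 1657 and 614 CPM on HFD, and 3 of the 15 were called lower (Cfd, the serine protease adipsin, at a log2 fold change of -3.42, Retn, the hormone resistin, at -2.05, and Adrb3, the β3-adrenergic receptor, at -1.84) and 1 higher (Lep, leptin, at 1.38). Adipoq (-0.52, adjusted p = 0.457), Plin1 (-0.79, adjusted p = 0.142), Pparg (-0.63, adjusted p = 0.149) and Fabp4 (-0.24, adjusted p = 0.641) did not pass edgeR's test. Without ND replicate 1, 2 or 3 or HFD replicate 1, 0 of the 15 were called lower and 0 higher, without HFD replicate 2 the count lower was 7, without HFD replicate 3 the count higher was 2, and DESeq2 called 6 lower. Each enzyme was therefore also expressed relative to that mean, which includes Cfd, Retn, Adrb3 and Lep. The ratios thus rest partly on genes that themselves differed between the diets. Acaca was then lower on HFD, with a difference of the mean log2 ratio of -2.25, Fasn with -1.84, Thrsp with -1.496 and Acacb with -1.02, and in these 4 the diets did not overlap, each at the smallest p possible (two-sided exact permutation test, p = 0.1, 0.22 adjusted over 11 ratios). Elovl6 (-1.70, p = 0.3), Acly (-1.01, p = 0.4), Me1 (-0.67, p = 0.4), Scd1 (0.13, p = 0.9) and Scd2 (0.97, p = 0.3) overlapped between the diets by the same exact permutation test. Without ND replicate 2 the differences for Elovl6, Acly and Me1 were -0.94, -0.12 and -0.10, and that for Scd2 was 1.45. For Elovl6, the ratio in HFD replicate 3 was 0.0332, beside 0.0287 and 0.0331 in ND replicates 1 and 3.

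**Figure D3:**
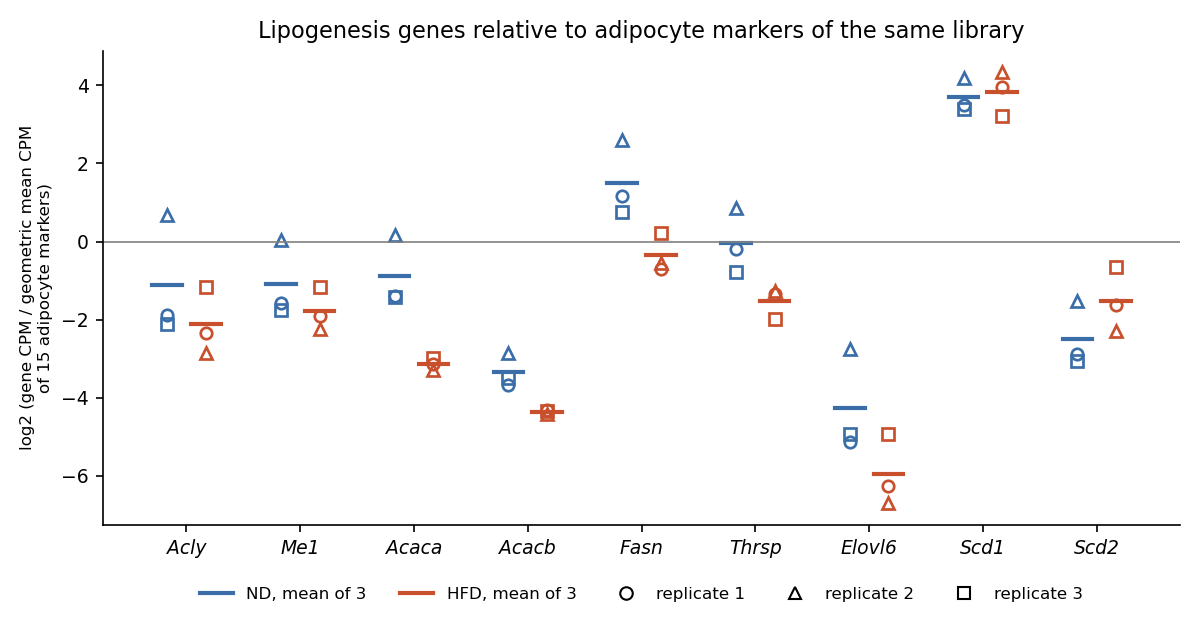
Log2 ratio of each tested enzyme's CPM to the geometric mean CPM of 15 adipocyte markers, 1 point per library with a line at the mean of each diet. Acaca, Fasn, Acacb and Thrsp have all HFD points below all ND points, whereas Acly, Me1, Elovl6, Scd1 and Scd2 overlap.

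Macrophage markers moved the other way. Of 15 such genes, 11 were called higher on HFD and 0 lower, with a median log2 fold change of 1.56, and their summed level was 2144 to 2275 CPM on ND and 5424 to 11975 CPM on HFD. The count of macrophage markers called higher was 5 without ND replicate 1, ND replicate 2 or HFD replicate 1 and 7 without ND replicate 3. Adgre1, which encodes F4/80, had a log2 fold change of 2.91 and Cd68 one of 3.72. Within HFD the summed level was highest in replicate 3 and lowest in replicate 2, and the enzymes had no common order there. Of the 9 tested, 5 were lowest in replicate 3 (Scd1, Thrsp, Acaca, Acacb and Me1), while Acly, Elovl6 and Scd2 were highest in it and Fasn was lowest in replicate 1. The part of the macrophage markers in the result was not tested. Of 10 progenitor and fibroblast markers and 8 endothelial markers tested, 0 and 0 were called by edgeR in either direction, with 0 and 2 lower and 0 and 0 higher at an unadjusted p under 0.05. Epithelial and mesothelial markers were highest in ND replicate 3, at a summed 486 CPM against 151 to 270 CPM elsewhere, and 0 of 8 tested were called, with 1 lower at an unadjusted p under 0.05. Of the tested markers of brown fat 1 of 6 was called lower and 1 higher, of liver 1 of 3 lower and of skeletal muscle 1 of 5 lower. Ucp1, which defines brown fat, had 0 counts in each library on ND and 3, 9 and 1 counts on HFD.

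Of 16 regulators of lipogenesis, 3 were called lower and 1 higher, and the median log2 fold change was -0.07. Srebf1, which encodes SREBP-1, was at 435, 541 and 439.5 CPM on ND and at 212, 288 and 150 CPM on HFD, and fell by 1.12 on the log2 scale (SE 0.25, adjusted p = 0.0272 from edgeR). Mlxipl, which encodes ChREBP, was at 70.2, 111 and 58.4 CPM on ND and at 29.7, 35.1 and 15.5 CPM on HFD, and fell by 1.58 (SE 0.35, adjusted p = 0.0263). Both were without overlap, and neither was high in ND replicate 2 to the extent of Fasn or Acly. Mid1ip1, whose product is a relative of Spot 14, fell by 1.25 (adjusted p = 0.0128), and Mlxip, the ChREBP paralogue MondoA, rose by 0.62 (adjusted p = 0.0153). Nr1h3, which encodes LXRα, had a log2 fold change of -0.01 (95% interval -0.31 to 0.29), and Insig1, an SREBP target that retains SCAP in the endoplasmic reticulum, one of -0.42 (adjusted p = 0.434). Without ND replicate 2, 1 of the 16 was called lower, and without HFD replicate 1 none was.

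The precursor supply of the pathway showed more calls than its regulators, with 9 of 14 genes lower, 1 higher and a median log2 fold change of -1.32. Slc25a1, the mitochondrial citrate carrier that brings out the substrate of Acly, was at 508, 1036 and 430.5 CPM on ND and at 172, 220 and 185 CPM on HFD, a log2 fold change of -1.77 (SE 0.34, adjusted p = 0.0188 from edgeR). Aacs, acetoacetyl-CoA synthetase, was also called lower at -2.31, as were Pcx, pyruvate carboxylase, at -1.64, and Pdhb and Pdha1, the E1 subunits of pyruvate dehydrogenase, at -1.54 and -1.43. Acss2, which makes acetyl-CoA from acetate in the cytosol, was at 101, 514 and 96.1 CPM on ND and at 56.0, 64.3 and 68.1 CPM on HFD. Its groups did not overlap, and at a log2 fold change of -1.92 it did not pass (adjusted p = 0.0859). The gene called higher was the mitochondrial paralogue Acss1, at 0.97 (adjusted p = 0.0120), named after its value was seen. Without ND replicate 2 the count of lower genes was 4 of 14, without ND replicate 1 it was 1, without ND replicate 3 it was 5, without HFD replicate 1 it was 1 and without HFD replicate 3 it was 4.

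NADPH supply other than Me1 showed 1 call among 10 genes tested, the folate enzyme gene Aldh1l1 at -1.23 (adjusted p = 0.0398 from edgeR), and a median of -0.10. That call was lost without any 1 library other than HFD replicate 2. G6pdx and Pgd, the NADPH-forming enzymes of the pentose phosphate pathway, had log2 fold changes of 0.42 (adjusted p = 0.276) and -0.07 (adjusted p = 0.907), and Idh1 one of -0.61 (adjusted p = 0.0732). G6pdx was at 195, 308 and 157 CPM on ND and at 297, 300.2 and 286 CPM on HFD, so 1 ND library exceeded the HFD libraries and the other ND libraries were below them.

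Among 13 other elongase, dehydratase and desaturase genes tested, 3 were called lower and 1 higher, with a median log2 fold change of -0.16. Fads1 and Fads2, the desaturases of polyunsaturated fatty acids, were called lower at -1.06 (adjusted p = 0.0132 from edgeR) and -1.25 (adjusted p = 0.0412). Fads2 was highest in ND replicate 3, the library with epithelial RNA, at 38.5 CPM against 15.98 and 21.5 CPM. Hacd1, a dehydratase of the elongation cycle, fell by 1.05 and its paralogue Hacd4 rose by 1.08. Elovl5, which lengthens polyunsaturated chains, was at -0.33 (adjusted p = 0.242). Without ND replicate 2 or HFD replicate 1, 0 of the 13 were called lower, and 1 was without ND replicate 1.

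In the AMP-activated kinase and malonyl-CoA list, which holds the kinase that inhibits the carboxylases and enzymes that use malonyl-CoA, 5 of 16 genes were called lower and 1 higher, with a median of -0.29. Prkaa2, the α2 catalytic subunit, fell by 1.49 (adjusted p = 0.0180 from edgeR), Mcat, of the mitochondrial fatty acid synthesis pathway, was at -0.90, Prkag2 at -0.67 and Cbr4 at -0.57, and Prkaa1, named after its value was seen, at -0.55, all called lower. The count lower was 0 without ND replicate 1 or HFD replicate 1, 1 without ND replicate 2, 2 without ND replicate 3 and 3 without HFD replicate 3. Cab39, which activates the upstream kinase LKB1, rose by 0.63. Mlycd, malonyl-CoA decarboxylase, was at -0.53 (adjusted p = 0.0833). Over these 5 pathway lists, 21 of 69 genes were called lower and 4 higher, and without ND replicate 2 the counts were 6 and 0.

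**Figure D4:**
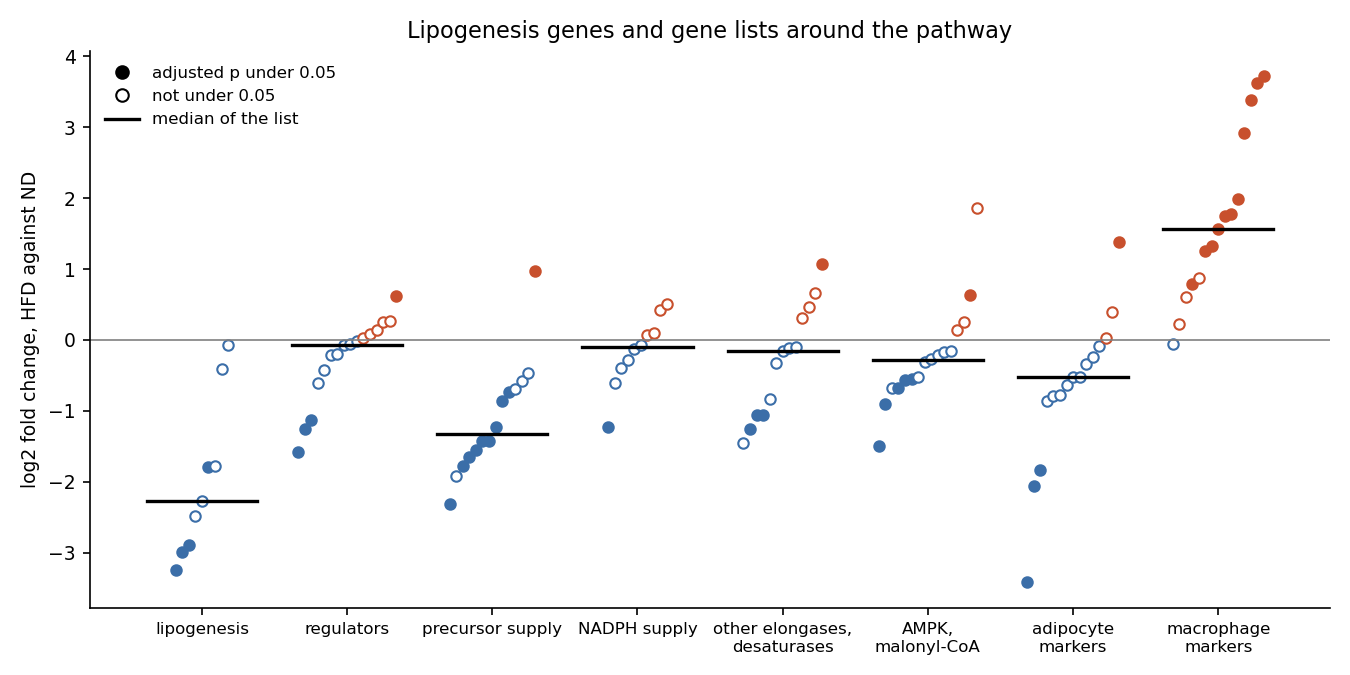
Log2 fold change (HFD minus ND, edgeR) of each tested gene in the lipogenesis enzymes, the 5 pathway lists and the adipocyte and macrophage lists, 1 point per gene (filled where the adjusted p was under 0.05), with a line at the median of each list. The medians are -2.27 for the enzymes, -1.32 for precursor supply and between -0.29 and -0.07 for the other pathway lists.

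Across the 6 libraries, the 4 protein-coding genes that followed the mean of the enzymes most closely were found among 12515 compared (Pearson's r of log2 CPM, a description over 6 libraries that share the gap between the diets and the high ND replicate 2). These were Pdhx, a component of pyruvate dehydrogenase (r = 0.999), Tcn2, the cobalamin carrier transcobalamin (0.997), Tmem79 (0.993) and Lage3 (0.993). Pdhx was at 54.8, 86.9 and 49.1 CPM on ND and at 35.8, 39.3 and 32.3 CPM on HFD, so it was likewise highest in ND replicate 2. It fell by 0.83 (adjusted p = 0.0472 from edgeR) and Tmem79 was called lower at -2.29 (adjusted p = 0.0265), while Tcn2 (-0.38) and Lage3 (-0.27) did not pass. These genes were picked by an r that includes the gap between the diets, so their tests are no separate evidence. Among the enzymes themselves, the r of deviations from the diet means ran from 0.240 for Scd1 and Elovl6 to 0.996 over 36 pairs, with a median of 0.814, again with ND replicate 2 among the points.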

How the data were processed

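Samples were grouped by the diet in their labels. The methods of the study describe paired-end reads mapped to GRCm38 with TopHat and Cufflinks, whereas the submitters' processing notes list fastp, HISAT2 2.0.5, featureCounts 1.5.0-p3 and DESeq2 1.20.0 together with human builds. The files hold mouse Ensembl identifiers. The strand setting and the handling of reads that match several genes are not given in the sources used here. Short stretches of exon overlap with other genes occur in Scd2, Elovl6, Elovl3 and Me1. Raw, unnormalized counts per gene were deposited. FPKM values, scaled by the authors for gene length and library, were deposited beside them. The counts were tested, and FPKM was used for levels per length and as an alternative.

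HFD was tested against ND with the quasi-likelihood F-test of edgeR 4.0.16 in R 4.3.3 (glmQLFit, robust=TRUE), after TMM normalization and filterByExpr, with Benjamini-Hochberg adjustment over 15751 genes at a threshold of 0.05. Standard errors were derived from the F statistic and 95% intervals from the total degrees of freedom of that test (residual plus prior). The depth was 16996896 to 18859320 counts per library. No pair of replicates agreed within sampling noise (chi-square of at least 19.0 per gene). Ratios were compared by exact permutation, where 3 samples against 3 cannot go below p = 0.1. The tools tried beside it were DESeq2 1.42.0, limma-voom (limma 3.58.1) and limma on log2(FPKM + 1), the last for genes reaching an FPKM of 0.5 in 3 libraries, with 0.1 as another pseudocount, and without that filter. Within edgeR, size factors from DESeq2, library size alone, no filter, a minimum of 10 counts in 3 libraries, robust=FALSE, a block for the replicate number and the omission of each library were tried.

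The enzymes and lists were chosen with earlier results of these data known. The genes named are the enzymes, a written set of pathway and marker genes, up to 4 further called genes per list by size of change, and the 5 protein-coding genes (average log2 CPM above 1) most like the mean of the enzymes, of which 1 is not reported here. Gene positions come from GENCODE M21 and promoters from RefSeq on GRCm38.p6. On simulated data for HFD against ND, edgeR recovered 112 of 200 changed genes among 15497 genes with 8 false calls in 120, and DESeq2 recovered 143 among 15751 genes with 51 false calls in 194.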

Additional observations from a re-analysis of the deposited data

How the results depend on the processing

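The limits are 3 samples per diet, a wide spread within ND and whole-tissue RNA. The direction of Fasn, Acaca, Acacb, Acly, Elovl6, Me1 and Thrsp was lower on HFD under each alternative run. The count of enzymes called lower, 4 with the main test, was 2 of 10 without a filter on low counts (725 of 28568 genes in all), 0 with log2(FPKM + 1) without the filter, where 255 genes were called lower and 394 higher in all, and 0 to 5 when 1 library was left out. Without HFD replicate 1, 94 genes in all were called lower, against 952 with all libraries. The genes of the 5 pathway lists called lower, 21 with the main test, were 4 with log2(FPKM + 1) without the filter and 1 to 26 with 1 library left out, and those called higher, 4 with the main test, were 2 and 0 to 5. Over all genes, DESeq2 called 1596 lower, and leaving out 1 library gave 94 to 1572 lower and 337 to 2368 higher, against 952 and 1552 with the main test. The log2 fold change of Scd2 was above 0 with limma-voom (0.13), with log2(FPKM + 1) with and without the filter (0.13 and 0.13) and with log2(FPKM + 0.1) (0.13), and ranged from -0.40 to 0.68 with 1 library left out. That of Scd1 ranged from -1.13 to 0.000307 with 1 library left out, the last without HFD replicate 3. Its ratio to the adipocyte markers ranged from -0.12 to 0.45, with -0.02 without ND replicate 3 and -0.12 without HFD replicate 2. The causes were not tested. Same-numbered libraries of the 2 diets did not deviate together (correlations of -0.0858, -0.0556 and -0.00532). The labels do not state whether the numbers pair the samples, and these correlations cannot settle it. In the edgeR fit with a replicate block, 1886 genes were called against 2504, with 1693 in both. There 4 of 9 enzymes were called lower, against 703 of 15751 genes in all. Thrsp was past the threshold (adjusted p = 0.0140) and Elovl6 was not (adjusted p = 0.0585), and Scd2 was at 0.16.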
